A study of Caenorhabditis elegans with 2 samples.

Results

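The 71 genes described here encode translation initiation factors, translation elongation factors and aminoacyl-tRNA synthetases of the nematode Caenorhabditis elegans. They were taken from the genome annotation by gene name. Names starting with eif-, ife-, ifg- or iff- gave 33 initiation genes, names starting with eef- gave 6 elongation genes, and names of the form "one letter, ars-, digit" gave 32 synthetase genes. All 71 were protein-coding, out of 19973 protein-coding genes and 46890 genes in all on the 6 chromosomes. The study mapped by ChIP-seq where HINF-1 (F39B2.1), the worm relative of the vertebrate zinc finger factor HINFP, lies on chromatin. HINF-1 carried TY1, EGFP and 3xFLAG tags from a CRISPR insertion at its own gene (strain RW12232), and both samples carried this insertion. There was 1 group of whole young adults aged 65 hours, synchronised by bleaching and L1 starvation, with 2 biological replicates precipitated by an anti-GFP antibody, and no second condition. Whole animals mix all tissues, so a peak cannot be placed in a cell type.

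Initiation factors bring the small ribosomal subunit, the initiator tRNA and the mRNA together. eIF2 carries the initiator tRNA, eIF2B recharges eIF2 with GTP, eIF3 is a large scaffold on the small subunit, and eIF4E with eIF4G bind the mRNA cap. Elongation factors eEF1 and eEF2 then deliver charged tRNAs and move the ribosome along the message, while the synthetases join each amino acid to its tRNA. HINFP is known in mammals as an activator of histone H4 genes at the start of DNA replication.

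Stretches are shown for 3 of the 5 genes whose 5' end had a peak that passed the authors' reproducibility threshold. Each lies under the strongest such peak there, as an example of the letters at elongation and synthetase genes. Those of eif-3.C and eef-2 are not shown. Each is the part of the 50 bp on either side of the peak summit that overlaps no annotated exon. The sequences were read from RefSeq's WBcel235 assembly, which ce11 names, 5' to 3' on the strand of the gene. Capitals mark the 11 bases centred on the summit. The stretches lie at chrIII:6972086-6972168 (minus strand), chrV:10965660-10965718 (plus strand) and chrII:8464523-8464623 (plus strand).
eef-1A.1: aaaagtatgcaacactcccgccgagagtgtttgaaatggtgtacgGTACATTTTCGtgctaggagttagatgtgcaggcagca
eef-1G: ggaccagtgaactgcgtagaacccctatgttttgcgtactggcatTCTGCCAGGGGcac
fars-3: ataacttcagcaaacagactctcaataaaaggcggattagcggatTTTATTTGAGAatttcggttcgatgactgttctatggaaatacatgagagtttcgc

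A set of 7 short words was searched on both strands. The words were the overlapping pair CGTCCG with ACGTCC, the palindrome CACGTG, the alternating repeat CGCGCGC, the repeat GAGAGA, the word GGGACACA and the word TTTCAG. None of them occurred inside these printed stretches. Over the full 50 bp each side of the summit, exons included, GAGAGA occurred at eef-1A.1 and TTTCAG at eef-1G. In the same window GAGAGA occurred at 10.1% and TTTCAG at 11.3% of the summits in the conservative list. GGTTCGA, searched after the sequences were seen, occurred at fars-3 and within 50 bp of 5.64% of the summits in the conservative list. The words were also counted in the promoters, taken as 250 bp before to 50 bp after the 5' end. TTTCAG was in 63.4% of the 71 promoters and in 51.7% of all protein-coding promoters, and GAGAGA was in 18.3% and 21.8%. CGTCCG was in 4.23% and 3.13%, and CACGTG was in 1.41%, which is 1 gene, and 5.82%. ACGTCC was in 2 of the 71 promoters and CGCGCGC in 1, against 3.07% and 1.78% of all, and GGGACACA and GGTTCGA were in 0 of the 71, against 0.621% and 1.42% of all. The median GC content of these promoters was 33.0%, against 34.3% for all protein-coding genes. A word match is a description of the letters and not of a binding site.

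Peaks were read from 8 lists deposited by the authors. The conservative list (567 peaks) and the optimal list (630 peaks) combine both replicates, and replicate 1 and replicate 2 each had a thresholded list of their own, with 209 and 272 peaks. Peaks were thresholded on the irreproducible discovery rate (IDR), which is small for a peak that ranks alike in separate sets of peaks. In these 4 lists the global IDR was at most 0.01 for every peak, that is a −log10 of at least 2. The other lists are long ranked lists of candidate peaks, most of which do not pass IDR: 89784 for both replicates, 53566 for replicate 1 and 51539 for replicate 2. A further ranked list of 96558 peaks, also made from both replicates, is called the pooled list here. How it was made differently is not stated in the sources used here. The ranked list from both replicates always means the one of 89784. A gene was counted when a summit lay within 500 bp of its annotated 5' end. The signal value of a peak is the authors' own, with no stated scaling, and it is compared only within one list. The percentile rank places a peak in its list by signal, with 0 the strongest. The read depth behind the peaks is unknown from these lists.

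HINF-1 peaks that passed the threshold stood in front of few of the translation genes. In the conservative list 4 of the 71 genes had a peak (5.63%), beside 16 of 81 cytosolic ribosomal protein genes (19.8%) and 1.32% of all protein-coding genes. The 4 were eif-3.C, eef-1A.1, eef-2 and eef-1G, which is 1 of 33 initiation genes, 3 of 6 elongation genes and 0 of 32 synthetase genes. The optimal list also held 4 genes, 2 of them elongation genes, beside 18 of 81 ribosomal protein genes and 1.48% of all protein-coding genes, with fars-3 in place of eef-1G. On its own, the thresholded list of replicate 1 held 0 of the 71 genes, beside 9 ribosomal protein genes and 0.546% of all protein-coding genes. The list of replicate 2 held 3 of the 71 (4.23%), namely eif-3.C, eef-1A.1 and fars-3, beside 11 ribosomal protein genes and 0.666% of all protein-coding genes. With 6 elongation genes, a share of this group moves far with a single gene.

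**Figure D1:**
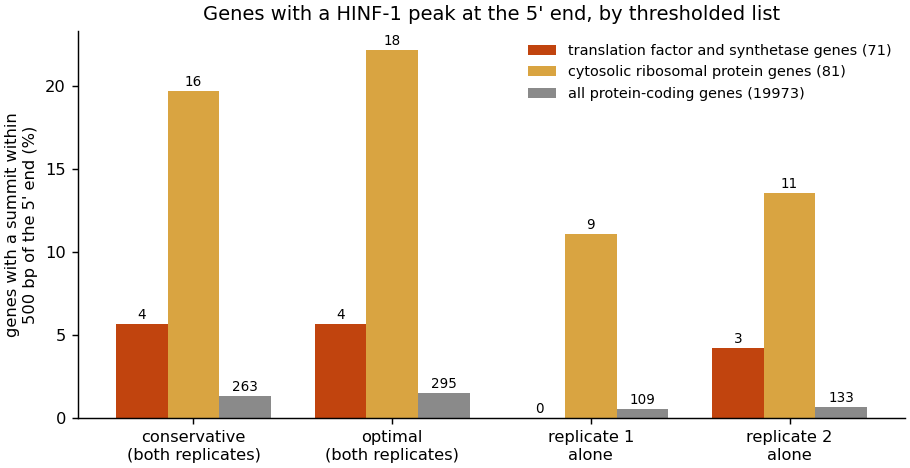
Percent of genes (vertical axis) with a peak summit within 500 bp of the 5' end in each of the 4 thresholded lists (horizontal axis), for the 71 translation factor and synthetase genes, the 81 cytosolic ribosomal protein genes and all 19973 protein-coding genes. The number over each bar is the count of genes. The translation genes stand at 4, 4, 0 and 3 genes, above the share of all protein-coding genes in each list but that of replicate 1 and below the ribosomal protein genes in all 4.

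The strongest peak belonged to eif-3.C, which encodes a core subunit of the eIF3 scaffold. Its summit lay 241 bp before the 5' end, in a peak at chrI:9979788-9980017 between genes. The signal was 158.2, rank 28 of the conservative list and of the optimal list, with a −log10 IDR of 3.75. In the ranked lists of single replicates the peak had a signal of 43.6 (rank 173) in replicate 1 and 117.7 (rank 57) in replicate 2. Both replicates thus placed it in the top 1% of candidates, at percentile ranks of 0.323 and 0.111, although only that of replicate 2 passed the threshold. No other gene had its 5' end within 500 bp of this summit. The gene upstream, sys-1, ends 401 bp from the 5' end of eif-3.C, on the same strand. The summit lay nearer that end of sys-1 than the 5' end of eif-3.C.

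The other 10 eIF3 genes had no thresholded peak, and 5 of them had a candidate peak in the ranked list from both replicates. With eif-3.C, 54.5% of the eIF3 genes had a candidate peak there, beside 66.6% of all protein-coding genes. In that list the 6 eIF3 genes with a peak ranged in signal from 20.5 to 158.2, with a median of 30.6. The median over all candidates in that list was 18.5. In the other ranked lists the share of eIF3 genes with a candidate peak was above that of all protein-coding genes. It was 72.7% against 69.8% in the pooled list, 54.5% against 47.7% in replicate 1 and 63.6% against 45.2% in replicate 2.

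The 3 elongation genes had peaks of nearly equal strength, close to or just under the conservative list's median signal of 64.7. eef-1A.1 encodes the tRNA-delivering factor eEF1A, and its peak at chrIII:6972003-6972232 had a signal of 62.5 (rank 319), with the summit 406 bp before the 5' end. eef-2 encodes the translocase eEF2, and its peak at chrI:9163376-9163605 had a signal of 60.2 (rank 349), with the summit 40 bp before the 5' end. eef-1G encodes the gamma subunit of the eEF1 exchange complex, and its peak at chrV:10965595-10965824 had a signal of 57.8 (rank 385), with the summit 9 bp before the 5' end. All 3 summits lay between genes, while the peaks of eef-2 and eef-1G ran into the gene and that of eef-1A.1 overlapped cel-mir-5549. The −log10 IDR values of these peaks, 2.48, 2.45 and 2.18, were near the threshold of 2. In the pooled list the value of eef-1G was 1.91, under the threshold, and the optimal list lacks this peak.

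Both replicates had these 3 peaks among their stronger candidates. For eef-1A.1 the signal was 25.2 (percentile rank 1.70) in replicate 1 and 37.3 (0.935) in replicate 2. For eef-2 it was 26.3 (1.44) in replicate 1 and 33.5 (1.33) in replicate 2. For eef-1G it was 28.8 (1.02) in replicate 1 and 26.6 (3.87) in replicate 2. Of the 6 values, that of eef-1A.1 in replicate 2 alone passed the single-replicate threshold, at rank 249 of 272.

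The remaining elongation genes had candidate peaks only, in the list from both replicates. eef-1A.2, a close copy of eef-1A.1, had a signal of 33.2 at 22 bp inside the gene, rank 6348, with no peak in replicate 1 and a signal of 20.04 in replicate 2. The eEF1 exchange subunit genes eef-1B.1 and eef-1B.2 had signals of 29.0 and 24.5. Within 250 bp of the 5' ends of eef-1A.1 and eef-1A.2, 99.6% and 96.0% of 31-base words were unique in the genome, a window that does not reach the eef-1A.1 summit. Over the 71 genes the median of this share was 100%, and it was under 50% at 2 genes, eif-3.L and tars-1.

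fars-3, for a phenylalanyl-tRNA synthetase subunit, was the one synthetase gene with a thresholded peak. The peak at chrII:8464458-8464687 had a signal of 58.6, rank 388 of the optimal list, with the summit 275 bp before the 5' end. Its −log10 IDR was 2.52 in the pooled list and 1.56 in the list from both replicates, which is why the conservative list lacks it. The replicates differed here. Replicate 1 had a signal of 16.9, rank 6166, and replicate 2 had 38.4, rank 447. The optimal list also held a weak peak 74 bp before the 5' end, with a signal of 3.08 and rank 629 of 630.

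In the full ranked list, which includes the peaks above, elongation genes stood ahead of initiation and synthetase genes. In the ranked list from both replicates 54 of the 71 genes (76.1%) had a candidate peak, beside 78 of 81 ribosomal protein genes (96.3%) and 66.6% of all protein-coding genes. Presence in this list therefore says little. The median percentile rank of the strongest peak was 3.84 for the 6 elongation genes, 20.1 for 21 initiation genes and 26.4 for 27 synthetase genes. Over all 54 it was 21.3, beside 8.43 for the ribosomal protein genes and 36.6 for all protein-coding genes with a peak. Among the strongest 10% of candidates were the peaks of 14 of the 71 genes (19.7%), of 43 ribosomal protein genes (53.1%) and of 11.3% of all protein-coding genes. The 14 comprised 5 initiation, 4 elongation and 5 synthetase genes.

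**Figure D2:**
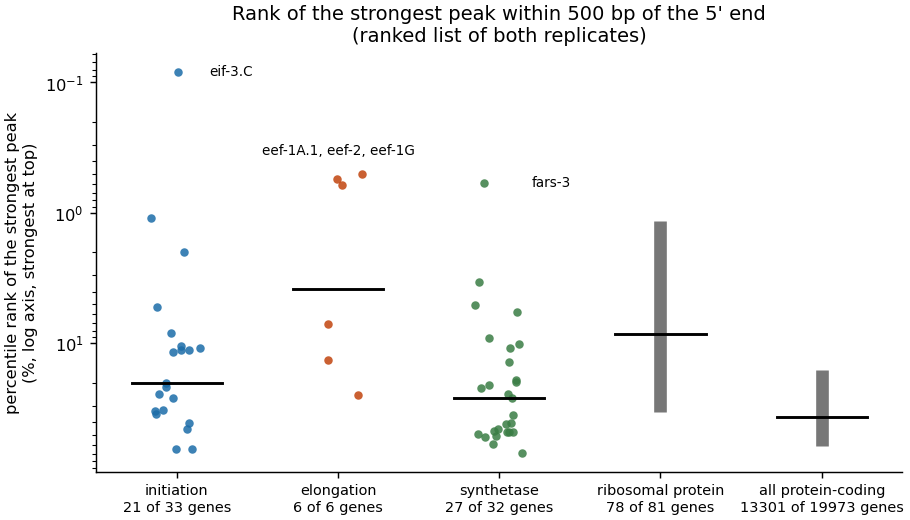
Percentile rank by signal of each gene's strongest candidate peak within 500 bp of the 5' end (vertical axis, percent, log axis with the strongest at the top) in the ranked list from both replicates, by role (horizontal axis). Points are genes and black lines are medians; for ribosomal protein genes and all protein-coding genes the grey bar runs from the lower to the upper quartile. The medians are 20.1, 3.84 and 26.4 for initiation, elongation and synthetase genes, against 8.43 for ribosomal protein genes and 36.6 for all protein-coding genes.

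Replicate 2 kept elongation first, with a median percentile rank of 9.98 for 6 genes, against 24.1 for 17 initiation genes and 40.8 for 18 synthetase genes. Over all 41 of the genes with a peak it was 32.0 there, and over all protein-coding genes with a peak it was 40.6. In replicate 1 the medians were 1.57 for 4 elongation genes, 25.02 for 21 initiation genes and 32.1 for 21 synthetase genes. Over all 46 it was 27.9, beside 41.7 for all protein-coding genes. The synthetase median in replicate 2 thus lay beside that of all protein-coding genes.

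Below eif-3.C, the best-ranked initiation gene was iff-2, for a worm eIF5A, which helps ribosomes through difficult stretches. The gene was counted with initiation by its name alone. Its peak from both replicates had a signal of 48.3, rank 986, with the summit 87 bp before the 5' end, and replicates 1 and 2 had signals of 21.4 and 25.3. ife-3, for a cap-binding eIF4E, followed with 42.4, rank 1803, at 89 bp inside the gene. The replicates put this peak far apart, at rank 1141 in replicate 1 and 20502 in replicate 2. eif-2gamma, for the eIF2 subunit that binds GTP, had 35.2, rank 4745, at 246 bp inside the gene.

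After fars-3, the best-ranked synthetase genes were rars-1 and rars-2 for arginine and aars-2 for alanine. rars-1 had a signal of 38.3, rank 3036, at 132 bp inside the gene, and stood at rank 1528 in replicate 1 and 25893 in replicate 2. aars-2 had 35.5, rank 4521, at 303 bp before the 5' end, with 18.2 in replicate 1 and 15.1 in replicate 2. rars-2 had 34.6, rank 5159, at 20 bp before the 5' end, with 13.2 in replicate 1 and 21.9 in replicate 2. None of these 3 passed IDR.

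By complex, candidate peaks were found at 2 of 3 eIF2 genes, 4 of 5 eIF2B genes, 3 of 6 eIF4E and eIF4G genes and 2 of 2 eIF5A genes. In that list, the one from both replicates, 66.6% of all protein-coding genes had one, so counts in such small groups say little. Of the initiation genes 63.6% had one, below the share of all protein-coding genes in that list only. Their share was higher than that of all in the pooled list (75.8% against 69.8%). It was also higher in replicate 1 (63.6% against 47.7%) and in replicate 2 (51.5% against 45.2%). The 17 genes with no candidate peak in the list from both replicates were 12 initiation, 0 elongation and 5 synthetase genes. The summits nearest the 500 bp limit were those of eif-2Bdelta, with a summit at 500 bp inside the gene (signal 24.1) and another at 505 bp before it (16.04), a weak second peak of eef-1A.1 at 498 bp inside (5.71), aars-1 at 494 bp before the 5' end (21.7) and gars-1 at 507 bp inside (21.2). One conservative peak lay beyond the limit, 898 bp before the 5' end of eif-2Bgamma, with a signal of 63.6 and rank 300.

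Agreement between replicates was limited. Of the 71 genes 30 (42.3%) had a candidate peak in both replicates, 14 had one in neither, and in 8 of the 30 the strongest summits lay within 50 bp of each other, beside 1840 of 5544 for all protein-coding genes. Of the 4 elongation genes with a peak in both, the summits lay within 50 bp at 1, eef-2, and not at eef-1A.1 or eef-1G. A peak in both replicates was found at 76.5% of ribosomal protein genes and 27.8% of all protein-coding genes. The strongest 10% of candidates in both replicates included 5 of the 71 genes, namely eif-3.C, iff-2, eef-1A.1, eef-2 and eef-1G, beside 20 of 81 ribosomal protein genes and 2.4% of all protein-coding genes. No synthetase gene was among them.

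**Figure D3:**
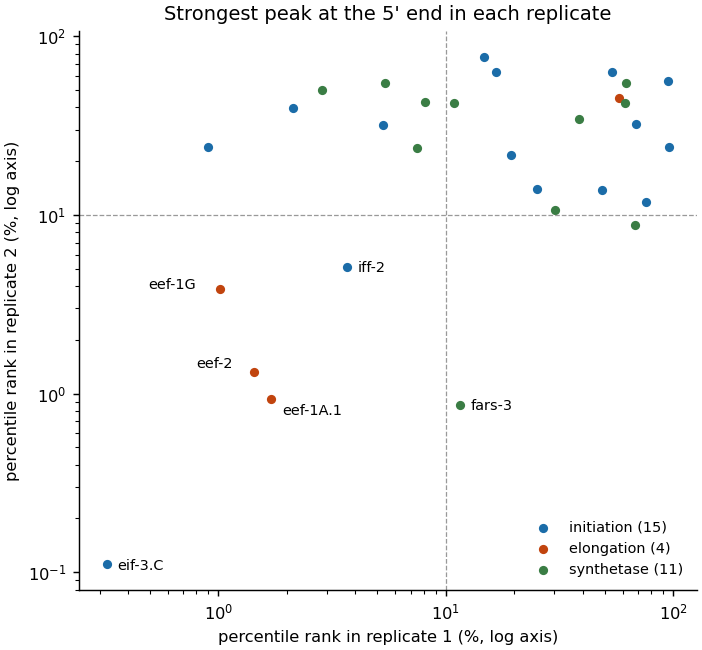
Percentile rank of the strongest candidate peak within 500 bp of the 5' end in replicate 1 (horizontal axis) and replicate 2 (vertical axis), both in percent on log axes with stronger peaks toward the lower left, for the 30 genes with a peak in both. Points are genes coloured by role and dashed lines mark 10%. The 5 genes at the lower left of both dashed lines are eif-3.C, iff-2, eef-1A.1, eef-2 and eef-1G, while fars-3 passes the line in replicate 2 only, at 0.867 against 11.5 in replicate 1.

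The summits of the 3 elongation peaks each lay between a pair of genes that start away from each other. The neighbours are named because they share the summit. The summit of eef-1A.1 was 135 bp before the 5' end of rfc-4, for a subunit of the replication factor C clamp loader, which was nearer than eef-1A.1 itself. It also lay 33 bp before the annotated start of cel-mir-5549, on the strand of eef-1A.1. The summit of eef-2 was 225 bp before clsp-1, for a relative of the replication checkpoint protein claspin. The summit of eef-1G was 171 bp before ctf-4, for a relative of the replication fork protein Ctf4. The 5' ends of these pairs were 541, 265 and 180 bp apart. Which gene of a pair a peak belongs to cannot be told apart from its position.

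That pattern was counted after these values were seen. A conservative summit was shared with a gene on the opposite strand at 3 of the 4 genes (75%), at 7 of 16 ribosomal protein genes (43.8%) and at 78 of 263 protein-coding genes with a conservative peak (29.7%). By annotation alone, an opposite-strand 5' end within 500 bp upstream was present at 19 of the 71 genes (26.8%) and at 3 of the 6 elongation genes. It was present at 24.7% of ribosomal protein genes and at 9.25% of all protein-coding genes. The 3 elongation genes counted this way do not include eef-1A.1, whose 5' end is 541 bp from that of rfc-4. Sharing a summit allows 5' ends farther apart than this 500 bp, so the counts follow unlike rules. At fars-3, as at eif-3.C, no other gene had its 5' end within 500 bp of the summit. Upstream of fars-3, zyg-9 ends 336 bp from the fars-3 5' end, on the same strand. Both summits lay nearer the 3' end of the upstream gene than the 5' end of the gene itself. Which end these peaks belong to cannot be told from their position. All 4 conservative summits lay before the 5' end, as did 72.6% of those of all protein-coding genes. Many worm mRNAs receive a spliced leader, so an annotated 5' end can lie downstream of where transcription starts.

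The elongation genes with a peak in front also had a separate conservative peak at the 3' end, looked for after the other values were seen. At eef-1A.1 the 3' summit lay 53 bp past the gene end with a signal of 80.5 (rank 157), higher than the 62.5 in front. At eef-1G it lay 87 bp past the end with 65.2 (rank 278), and at eef-2 it lay 64 bp inside the gene with 61.8 (rank 328). The 3' summits of eef-1A.1 and eef-2 had no 5' end of any gene within 500 bp. Among the peaks of any rank more than 500 bp from either end of the gene, the signal was 17.9 in eef-1A.1, 16.4 to 28.7 in eef-1G and 21.2 to 36.9 in eef-2. The highest of these had percentile ranks of 52.8, 14.0 and 4.12 in the ranked list from both replicates. Within 500 bp of the 3' end eef-2 also had candidates of 43.0 (percentile rank 1.85) and 45.8 (1.40). eef-1G had one of 37.5 (3.79) there, and eef-1A.1 one of 20.4 (41.2).

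In single replicates the 3' peak of eef-1A.1 was again higher than the one in front, with signals of 36.0 against 25.2 in replicate 1 and 46.4 against 37.3 in replicate 2. It passed the threshold in both replicates. At eef-1G the order differed, with 26.8 at the 3' end against 28.8 in front in replicate 1 and 36.7 against 26.6 in replicate 2. At eef-2 the peak nearest the 3' end had 24.98 against 26.3 in front in replicate 1 and 33.6 against 33.5 in replicate 2.

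**Figure D4:**
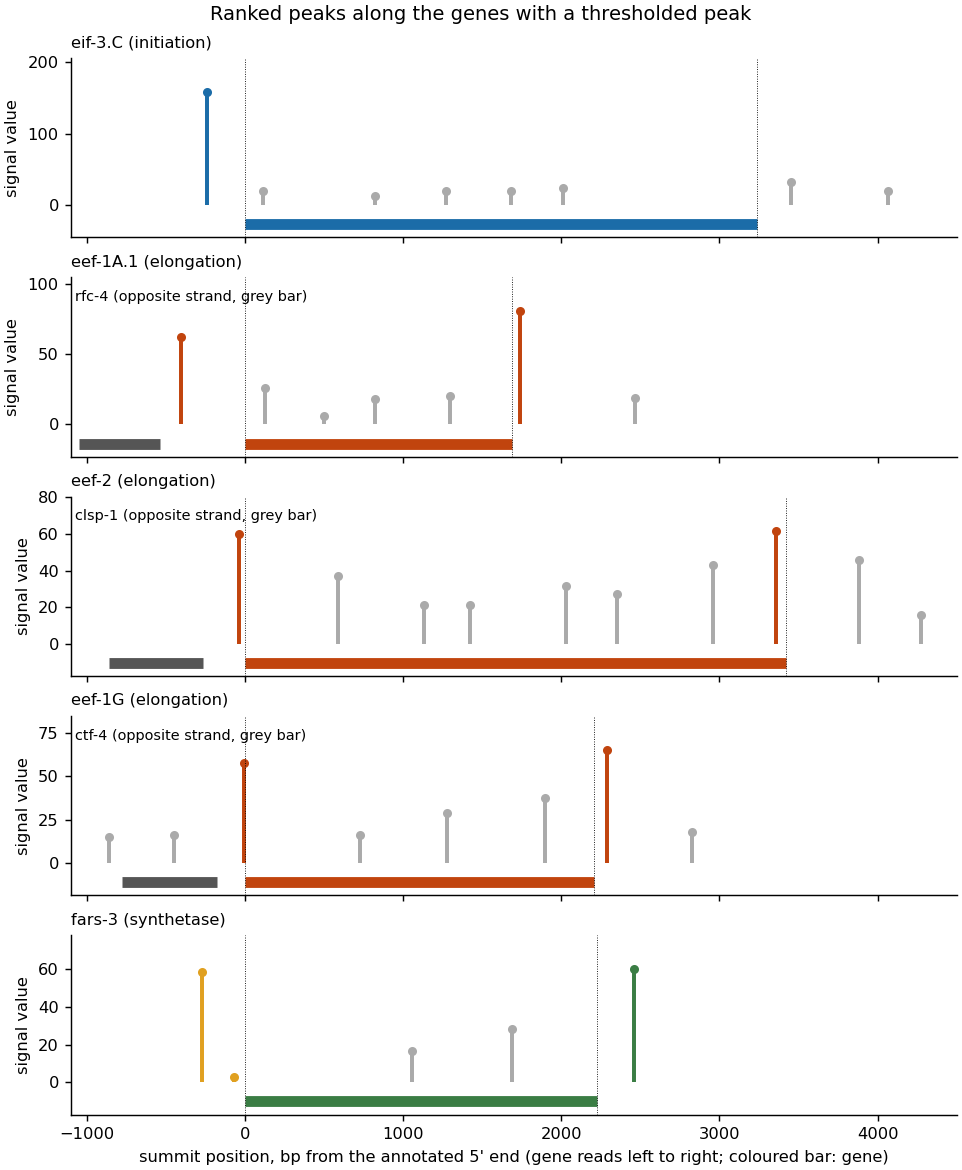
Signal of each candidate peak in the ranked list from both replicates (vertical axis, the authors' signal value) against the distance of its summit from the annotated 5' end (horizontal axis, bp), for eif-3.C, eef-1A.1, eef-2, eef-1G and fars-3. Stems in the colour of the gene bar are conservative peaks, yellow stems are in the optimal list only, grey stems pass neither, and dotted lines mark the gene ends. eef-1A.1, eef-2 and eef-1G have a conservative peak at each end with lower peaks between, fars-3 has an optimal peak in front and a conservative peak past its end, and the one conservative peak of eif-3.C is that of 158.2 in front.

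Conservative summits within 500 bp of the 3' end were found at 6 of the 71 genes (8.45%), 43 of 81 ribosomal protein genes (53.1%) and 1.78% of all protein-coding genes. Counting only summits with no 5' end of any gene within 500 bp left 2 of the 71 genes, 18 of 81 ribosomal protein genes and 0.871% of all protein-coding genes. The 6 were 4 of the 6 elongation genes, eif-1.A and fars-3. eef-1B.2, with no thresholded peak in front, had one 131 bp past its end with a signal of 62.5, which was 66 bp from the 5' end of hrpu-1. fars-3 had one 234 bp past its end with a signal of 60.1, which was 132 bp from the 5' end of F22B5.10. eif-1.A, for a factor that opens the small subunit to mRNA, had one 99 bp past its end with 43.9, which was 7 bp from the 5' end of srw-95. That of eef-1G was 303 bp from the 5' end of F17C11.20. Separate peaks at both ends were present at 3 of the 4 genes with a conservative peak in front, at 9 of 16 ribosomal protein genes (56.2%) and at 35 of 263 protein-coding genes (13.3%). Transcript levels were not measured in this study, and their part in these peaks was not tested.

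Of 30 other genes of the translation apparatus (release factors, poly(A)-binding proteins, mitochondrial factors, kinases of the pathway and nascent-chain factors), 2 had a conservative peak (6.67%). The share was 5.63% for the 71 genes and 1.32% for all protein-coding genes. icd-2, for the alpha subunit of the nascent polypeptide-associated complex, had a signal of 91.8 (rank 103), with the summit 352 bp before the 5' end. tct-1, for a relative of translationally controlled tumour protein, had 68.1 (rank 244), with the summit 133 bp inside the gene. Both were in the thresholded list of replicate 2, at signals of 59.8 and 42.4, and in neither case in that of replicate 1. Candidate peaks in the list from both replicates stood at 26 of the 30 (86.7%), with a median percentile rank of 14.6. For the 71 genes these values were 76.1% and 21.3, and for all protein-coding genes they were 66.6% and 36.6.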

How the data were processed

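ChIP-seq peak lists of 2 biological replicates of 1 group (chromatin sheared to a size range of 200 to 800 bp) were deposited by the authors on ce11. Per the file headers, each list was made from the filtered alignments of 1 or both replicates; the peak caller is not given in the sources used here. The signal value and the −log10 of the global IDR are the authors' own deposited values. A control experiment named in the labels was not used here, nor were 32 columns of per-set values in the ranked lists. Because the conservative and optimal lists combine the replicates, values have no SD.

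Genes came from Ensembl release 115 and sequence from RefSeq WBcel235. Coordinates are 1-based. Every gene with a 5' end within 500 bp of a summit was counted. A gene's strongest peak by signal was used. All protein-coding genes include those described here. With 1 group there was no contrast and no test. The genes named were every member with a thresholded peak, the 4 best-ranked of each role, the genes sharing their summits, genes of the other translation list with a thresholded peak, and others that the text marks as picked later. Members and lists were chosen with earlier results of these data known. Of 33 names of other translation genes 30 matched the annotation. The assignment of summits was tested on simulated data, and 200 of 200 planted summits were recovered. Python 3.11.15, numpy 2.4.6, pandas 2.3.3 and matplotlib 3.10.9 were used. Alternatives varied the distance, the 5' ends, the IDR threshold, the list and the replicate.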

Additional observations from a re-analysis of the deposited data

How the results depend on the processing

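No paired analysis was possible because the design holds 1 group. Of 48 alternatives, 33 left a value that differed from the one reported by a ratio of no more than 1.5. Many of these values are small counts. A fall from 3 to 2 elongation genes within 250 bp is among the 33, as are synthetase counts that stayed at 0. At a −log10 IDR of 3 the genes with a peak in front fell to 1 in the conservative list (elongation 0) and to 1 in the optimal list, against 4 in each, and those with a 3' peak fell to 1 against 6. Within 1000 bp 2 initiation genes had a conservative peak, the second being eif-2Bgamma. Leaving out each replicate in turn, that is using the thresholded list of the other, gave 0 to 3 genes in all, 0 to 1 initiation, 0 to 1 elongation and 0 to 1 synthetase genes, and 1 to 3 genes with a 3' peak; the lower value was without replicate 2 in each case. These lists are shorter. The median percentile rank of 21.3 became 32.6 within 250 bp and 13.3 within 1000 bp, beside 43.4 and 26.9 for all protein-coding genes, and 27.9 to 32.0 with 1 replicate left out. Assigning each summit to the nearest 5' end only left 3 genes, without eef-1A.1. The 3' counts were added after seeing the data. Depth is unknown, so a missing peak does not show that binding is absent.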

Other observations

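Some genes stood high in a single replicate, and they are given here as values chosen after they were seen. eif-2alpha, for the eIF2 subunit that is phosphorylated under stress, had a candidate signal of 29.6 in replicate 1 (percentile rank 0.896) and of 18.2 in replicate 2 (23.9). These were separate summits, at offsets from the 5' end of 87 bp in replicate 1 and -154 bp in replicate 2, where minus is upstream. yars-2, for a tyrosyl-tRNA synthetase, had a signal of 31.7 in replicate 2 (percentile rank 1.65) and no peak within 500 bp in replicate 1. Neither gene had a thresholded peak in any list.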
